A study of Mus musculus with 4 samples.

Results

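Heat shock proteins are molecular chaperones that hold unfolded proteins, refold them or pass them on for degradation. In the cytosol HSP70 proteins bind exposed hydrophobic stretches, HSP40 proteins deliver clients and trigger ATP hydrolysis, and HSP110 and BAG proteins release the nucleotide so that the cycle can restart. HSP90 takes over clients close to their folded state, small heat shock proteins keep aggregating proteins soluble, and HSP60 with its lid HSP10 folds proteins inside mitochondria. Many of these genes are switched on together by heat shock factor 1 (HSF1), which binds alternating copies of a short unit, the heat shock element, while a few are kept at high levels without stress.

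The 10 genes described are Hspa1a and Hspa1b (inducible HSP70), Hspa8 (the constitutive HSC70), Hsph1 (HSP110), Dnajb1 (HSP40), Bag3, Hspb1 (the small HSP25), Hsp90aa1 (the inducible HSP90) and the mitochondrial pair Hspd1 (HSP60) and Hspe1 (HSP10). Their members are the non-control array probes whose accession is a RefSeq transcript of one of these genes, which gave 10 of the 23462 named genes and 19 of 56605 probes. The genes were chosen by their log2 differences between these same arrays, so their values are a description and carry no test. Liver RNA of male mice was hybridized on 4 Agilent 1-colour arrays, 1 per group. The control array holds liver of naturally aging mice, the diabetic array liver of an aging type 2 diabetes model without drug, the metformin array liver of that model given metformin (a glucose-lowering biguanide), and the combination array liver of that model given metformin together with astragalus polysaccharide, a carbohydrate fraction of Astragalus root. The titles carry 60 d without saying what it counts from. The sources used here do not give the strain, the ages, the way diabetes was brought about or whether RNA of several mice was pooled.

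With 1 array per group there was no replicate check of any group difference and no p-value. Each probe's level is its log2 processed signal minus the 75th percentile of the same array, taken over the probes that kept a value on all 4 arrays. That percentile lay at a signal of 1159 for control, 1359 for diabetic, 1649 for metformin and 1487 for combination liver. Saturation affected no spot. The highest signal of a heat shock probe was 49600 against array maxima of 104004 to 168201. Probes printed several times on each array gave a log2 SD of 0.08 to 0.09 per array-to-array difference (the spot SD), and this covers neither mouse-to-mouse nor preparation-to-preparation variation. Of the 10 hepatocyte markers, 9 had a usable probe above background on each array (Apoa1 lacked one on the combination and Cps1 on the others). The lists of exocrine pancreas, lymphocyte, Kupffer cell, matrix and cell cycle genes differed between arrays, and their summed levels are given with the results they bear on.

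Letters of the heat shock element were searched for in RefSeq promoter windows of the GRCm38.p6 build. These windows run from 250 bases before to 50 bases after an annotated transcript start. Of the 10 genes, 8 matched in this table with 11 windows. Hspa8 and Hsp90aa1 did not match. The search used an inverted pair of units in either order, GAANNTTC or TTCNNGAA, each of which reads the same on both strands, and 3 alternating units, GAANNTTCNNGAA, on both strands. The longer motif contains both pairs, so its matches are also pair matches. The 250 bases upstream of the start are shown 5′ to 3′ on the gene's strand for 5 genes, with every match in capitals: Hspa1a and Hspa1b because they differed most between the arrays, Hsph1 and Hspb1 as their inducible partners, and Hspe1 as the mitochondrial contrast.
Hspa1a, chr17:34972157-34972406, minus strand: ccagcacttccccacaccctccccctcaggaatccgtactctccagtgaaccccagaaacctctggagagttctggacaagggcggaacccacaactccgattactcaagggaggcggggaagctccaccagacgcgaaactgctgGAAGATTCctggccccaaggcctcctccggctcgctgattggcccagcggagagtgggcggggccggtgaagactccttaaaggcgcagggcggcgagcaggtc
Hspa1b, chr17:34959239-34959488, minus strand: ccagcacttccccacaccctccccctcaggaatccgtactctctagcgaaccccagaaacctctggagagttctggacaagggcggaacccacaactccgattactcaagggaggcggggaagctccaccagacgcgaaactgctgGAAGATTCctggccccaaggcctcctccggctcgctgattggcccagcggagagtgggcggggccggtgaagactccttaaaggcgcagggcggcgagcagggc
Hsph1, chr5:149636337-149636586, minus strand: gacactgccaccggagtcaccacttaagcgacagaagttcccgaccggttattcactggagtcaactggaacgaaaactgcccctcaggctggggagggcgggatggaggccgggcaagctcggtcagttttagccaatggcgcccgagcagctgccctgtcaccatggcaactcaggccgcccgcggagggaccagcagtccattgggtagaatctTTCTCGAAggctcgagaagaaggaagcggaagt
Hspb1, chr5:135887669-135887918, plus strand: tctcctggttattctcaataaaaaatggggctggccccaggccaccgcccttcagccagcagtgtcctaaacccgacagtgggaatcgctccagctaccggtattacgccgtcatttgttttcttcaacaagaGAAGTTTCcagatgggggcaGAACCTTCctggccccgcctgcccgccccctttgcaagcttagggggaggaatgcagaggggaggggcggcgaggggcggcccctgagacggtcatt
Hspe1, chr1:55087898-55088147, plus strand: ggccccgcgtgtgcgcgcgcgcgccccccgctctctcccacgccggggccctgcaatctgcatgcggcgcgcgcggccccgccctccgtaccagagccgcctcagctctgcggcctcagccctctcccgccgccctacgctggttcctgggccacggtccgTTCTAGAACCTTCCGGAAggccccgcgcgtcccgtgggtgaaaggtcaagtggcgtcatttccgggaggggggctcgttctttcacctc

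Hspa1a and Hspa1b, neighbouring copies of the inducible HSP70 gene, had the same bases at 247 of these 250 positions (98.8%). Counted from 1 at the 5′ end of the window as printed, the differences from Hspa1a to Hspa1b were C44T, T47C and T249G. Both held 1 pair, GAAGATTC, at -104 to -97 from the start. Hspb1 held a pair at -117 to -110 and another at -97 to -90. Hsph1 held a pair, TTCTCGAA, at -33 to -26, and 3 alternating units, TTCTGGAAAGTTC, at 37 to 49 after the start. Hspe1 held the run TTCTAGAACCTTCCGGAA at -89 to -72, in which the motif of 3 units matched in both orientations. The Hspd1 window overlaps it on the opposite strand and held the reverse complement of this run at -144 to -127. Bag3 held 1 pair at 43 to 50 after its start, and Dnajb1 held none in its windows. In all, 7 of the 8 matched genes held a pair and 3 (Hspd1, Hspe1 and Hsph1) held 3 units. By gene, 17.0% of 27025 genes held a pair and 0.662% held 3 units. Among all 32851 promoter windows of this length 15.1% held a pair and 0.603% held 3 units, beside 8 and 4 of the 11 windows of these genes. The Hspd1 and Hspe1 matches are the same run, counted for both genes. A match is a run of letters and shows no binding.

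**Figure D1:**
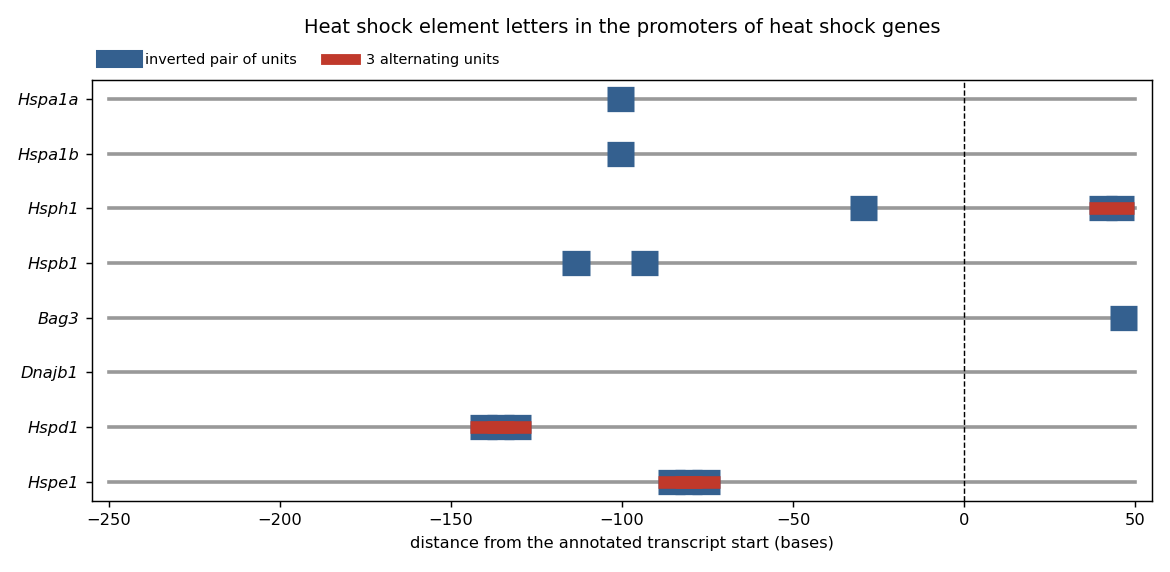
Heat shock element letters in the RefSeq promoter windows of 8 heat shock genes, with distance from the annotated transcript start in bases on the horizontal axis (the dashed line is the start) and 1 grey line per gene. Blue blocks are inverted pairs and red blocks 3 alternating units: Hspa1a and Hspa1b carry a pair at the same place, and the 3-unit motif is in Hsph1, Hspd1 and Hspe1.

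The first question was how these chaperone genes stood in diabetic against aging control liver. No gene of the 10 was at least 2-fold higher or lower. The largest differences were those of Dnajb1 (-0.83 in log2) and Hsph1 (-0.78), and Bag3 alone was above 0, although Hspa1a turned above 0 in 5 of 13 other settings and Hspb1 in 3. The median of the 10 was -0.41, beside -0.11 over the 13475 genes measured on both arrays, of which 5.97% were higher and 5.69% lower by 2-fold or more. Of these 13475 genes 59.7% lay below 0.

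The next question, asked of each treatment, was how diabetic liver given metformin, alone or with astragalus polysaccharide, stood against untreated diabetic liver. On the metformin array Hspa1a was 8.42-fold, Hsph1 7.52-fold and Hspa1b 6.94-fold lower, and on the combination array Hspa1a was 31.8-fold, Hspa1b 14.2-fold and Hsph1 7.66-fold lower. All 10 genes lay below the diabetic array on metformin (8 with spike-in scaling), and 6 by at least 2-fold: Hspa1a, Hspa1b, Hsph1, Dnajb1, Hspb1 and Hspa8. On the combination 8 lay below it and again 6 by at least 2-fold, with Bag3 and Hsp90aa1 in place of Hspb1 and Hspa8. Over all measured genes 3.54% of 13900 and 5.79% of 14108 were at least 2-fold lower in these comparisons, and 59.1% and 46.0% lay below 0. No gene of the 10 was at least 2-fold higher, against 8.82% and 3.98% of all genes. The median of the 10 was -1.04 on metformin and -1.06 on the combination, beside all-gene medians of -0.11 and 0.04. The 6 called on metformin became 3 (Hspa1a, Hspa1b and Hsph1) with the authors' values, quantile normalization, spike-in scaling, the 75th percentile over probes above background everywhere, or the all-gene median taken off. Both comparisons use the same single diabetic array, so their likeness is not independent.

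**Figure D2:**
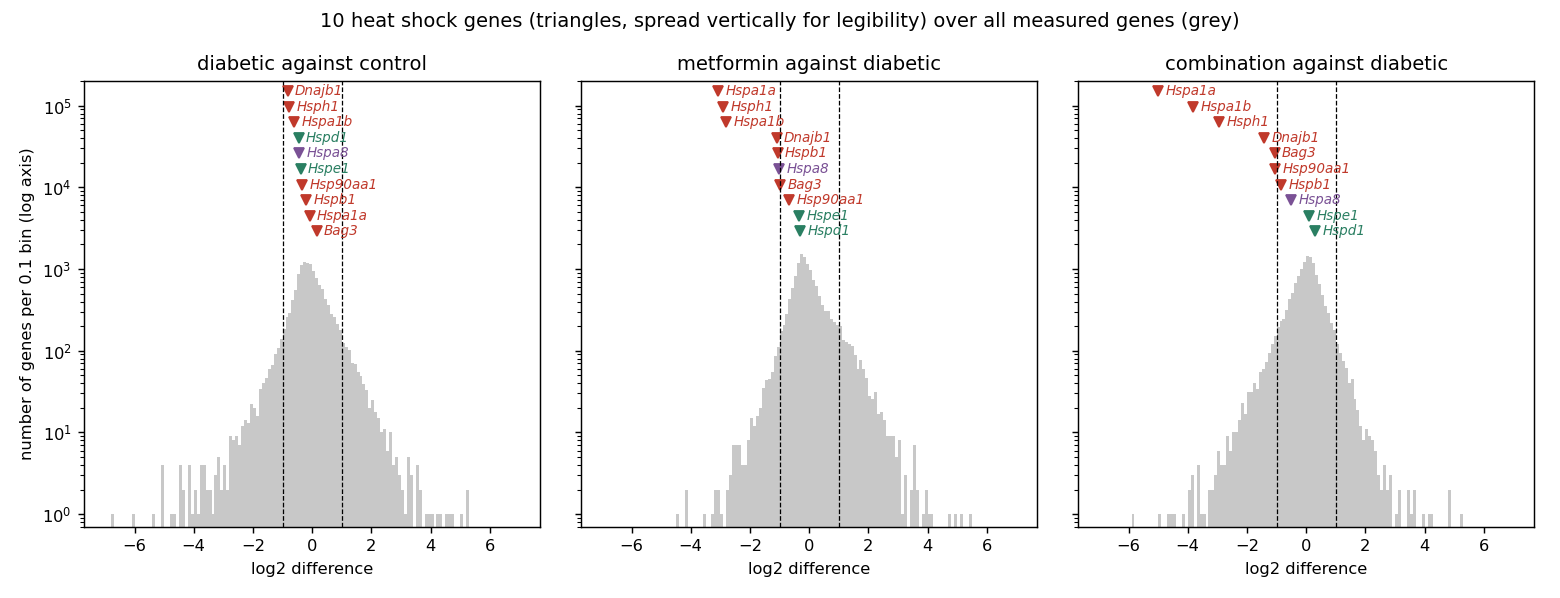
Log2 differences of all measured genes (grey histogram, number of genes per bin on a log axis) and of the 10 heat shock genes (triangles, placed at different heights only for legibility) in the 3 comparisons, with dashed lines at 2-fold. Red marks stress-inducible cytosolic genes, purple Hspa8 and green the mitochondrial pair. Hspa1a, Hspa1b and Hsph1 lie in the far lower tail of both treated comparisons and inside the 2-fold lines in the diabetic against control comparison.

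Hspa1a encodes the HSP70 that is scarce in unstressed cells and rises steeply on heat or proteotoxic stress. Its level, in log2 over the 75th percentile, was 3.05 in control, 2.96 in diabetic, -0.11 in metformin-treated and -2.02 in combination-treated liver. The control and diabetic values differed by less than 2 spot SDs, and both treated values lay far below them. Among 13900 genes its difference of -3.07 on metformin ranked 8th from the lowest, and among 14108 genes that of -4.99 on the combination ranked 2nd. Its range over the 4 arrays, 5.08, was the 20th widest of 12702 genes measured on all of them, whose median range was 0.70.

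Hspa1b, which makes a nearly identical HSP70 protein, stood at 4.97, 4.36, 1.57 and 0.53 in the same order of arrays. It had the same order as Hspa1a but was already 0.60 lower on the diabetic than on the control array. Its differences from the diabetic array were -2.80 on metformin and -3.83 on the combination. Each of these genes rests on 1 probe with 1 spot per array, and near-identical copies can share signal, so their separate values are uncertain.

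Hsph1 encodes the HSP110 that serves as a nucleotide exchange factor for HSP70. The probe measured on all 4 arrays stood at 3.44, 2.58, -0.33 and -0.68 from control through diabetic and metformin to combination liver. A second probe, left out as an outlier on the control and metformin arrays, stood at 4.07 on the diabetic and 1.46 on the combination array. The remaining probe, for another transcript, stood at -1.70 and -2.39 on the control and diabetic arrays and was not well above background on either treated array. This bounds it as at least 2.71-fold lower on metformin and at least 2.39-fold lower on the combination than on the diabetic array. All 3 probes thus placed the combination array below the diabetic one, and the 2 usable on metformin did so there, with combination differences of -2.62 and -3.26 on those that could be measured.

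Dnajb1 encodes the stress-inducible HSP40 that partners Hspa1a and Hspa8. Its level was 5.31 in control, 4.49 in diabetic, 3.39 in metformin-treated and 3.08 in combination-treated liver. The smallest step down this order was 0.31, well beyond 2 spot SDs, and the control-to-combination span was 4.72-fold. It was 2.14-fold lower on metformin than on the diabetic array, which stayed past 2-fold in 7 of 13 other settings, and 2.66-fold lower on the combination, which did so in 13 of 13.

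Bag3, a co-chaperone that links HSP70 to small heat shock proteins and to selective autophagy, stood at 4.14, 4.29, 3.29 and 3.22 in the same order. Its control and diabetic values differed by 0.15 and its metformin and combination values by 0.08, both less than 2 spot SDs. In the reported setting the arrays thus fell into a higher and a lower pair. This grouping depended on the scaling. With spike-in scaling metformin was at -0.19 against the control, and the combination at -0.49 against metformin. The gap between the diabetic and the metformin array was 1.99-fold, just short of the mark.

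Hspb1, the small heat shock protein that holds unfolding clients, stood at 4.43, 4.22, 3.15 and 3.38. Its lowest value was on the metformin array, 2.09-fold below the diabetic, while the combination array was 1.79-fold below it. The combination was 0.22 above metformin here, a direction that turned with spike-in scaling and with each array's own 75th percentile.

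Hsp90aa1, the stress-inducible cytosolic HSP90, stood at 5.003, 4.66, 3.97 and 3.91 on the probe measured on all arrays. Its other probe, an outlier on the metformin array, stood at 4.86, 4.51 and 3.18 on the control, diabetic and combination arrays. The combination difference from the diabetic array was -0.76 on one probe and -1.33 on the other, with a mean of -1.04 (2.06-fold lower), and the metformin difference was -0.69 on 1 probe.

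Hspa8 encodes HSC70, the HSP70 that is abundant in unstressed cells and also strips clathrin from vesicles. On the 2 probes measured everywhere its mean level was 4.48, 4.05, 3.04 and 3.28 in the same order of arrays. The metformin difference of -1.01 rests on these alone, since the other 2 were outliers there, and it became -0.78 when outlier spots were kept. Over all 4 probes the combination difference was -0.51, and single probes ran from -0.96 to -0.09. The size of the Hspa8 difference therefore depended on the probe, while no probe placed a treated array above the diabetic.

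**Figure D3:**
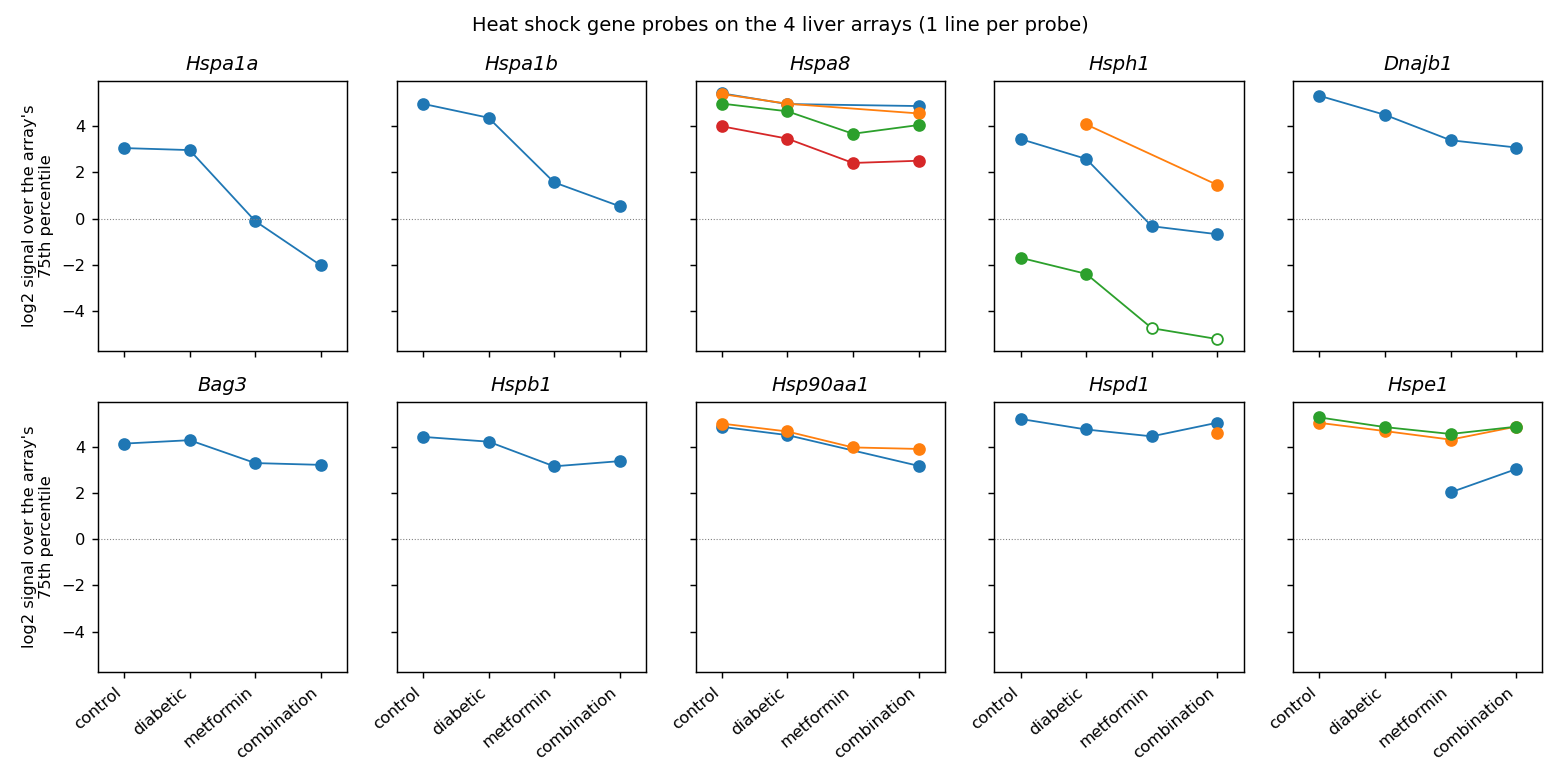
Level of each heat shock probe (log2 signal over the array's 75th percentile, vertical axis) on the 4 arrays (horizontal axis), 1 panel per gene and 1 line per probe. Open circles were not well above background, outlier spots are left out, and lines only join points of a probe. Hspa1a, Hspa1b and Hsph1 drop steeply from the diabetic to the metformin array, while the Hspd1 probe measured on all arrays spans 0.75.

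The mitochondrial chaperonin genes did not share this pattern. Hspd1 stood at 5.20, 4.75, 4.45 and 5.04 from control through diabetic and metformin to combination liver, and Hspe1, on the mean of 2 probes, at 5.15, 4.76, 4.43 and 4.87. Both were lowest on metformin and highest on the control, a range of 1.68-fold for Hspd1 and 1.65-fold for Hspe1. These ranges ranked 5773rd and 6122nd of 12702 genes. On metformin Hspd1 was at -0.30 and Hspe1 at -0.33 against the diabetic array, and both signs turned with spike-in scaling. On the combination Hspd1 was 0.29 above the diabetic array and Hspe1 0.11 above it. The value for Hspe1 was within 2 spot SDs, and its sign turned in 3 of 13 settings. Hepatocyte markers moved in the same order: their median difference was -0.38 on metformin (9 genes, all lower) and 0.03 on the combination (8 genes, 6 higher), and their summed signal was 532, 416, 317 and 430 times the 75th percentile from control through diabetic and metformin to combination liver. Of all genes 59.1% lay below the diabetic array on metformin and 46.0% on the combination. The part of hepatocyte content in the mitochondrial values was not tested, and in bulk liver fewer cells of a type and less RNA per cell cannot be told apart.

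The last question was what astragalus polysaccharide added to metformin. Against the metformin array, the combination array was 3.77-fold lower in Hspa1a and 2.05-fold lower in Hspa1b, and no other gene of the 10 was 2-fold apart in either direction. Over all 14363 measured genes 8.72% were lower and 2.62% higher by that much. Hspa1a kept this mark in 13 of 13 other settings and Hspa1b in 12 of 13. Hsph1 (-0.35) and Dnajb1 (-0.31) lay below metformin in every setting. Bag3 (-0.08) and Hsp90aa1 (-0.07) differed by less than 2 spot SDs. Hsp90aa1 rests on 1 probe here, as its other probe was an outlier on the metformin array. Hspd1 was 0.59 and Hspe1 0.63 above metformin, beside a hepatocyte marker median of 0.42 over 8 genes, all higher. Both genes lay above metformin in every setting, but by only 0.17 and 0.21 with spike-in scaling. Of all genes 42.4% lay below metformin. The 3 Hspe1 probes ran from 0.32 to 1.01, so the size of the Hspe1 difference is uncertain.

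The treated arrays were also set against aging control liver. On the metformin array 7 genes were at least 2-fold lower than on the control, beside 5.72% of 13506 genes, led by Hsph1 (13.6-fold), Hspa1b (10.5-fold) and Hspa1a (8.94-fold). On the combination array 6 were, beside 5.9% of 13845 genes, led by Hspa1a (33.7-fold), Hspa1b (21.6-fold) and Hsph1 (17.3-fold). None was at least 2-fold higher, against 8.09% and 4.6% of all genes. Dnajb1 was 3.79-fold and 4.72-fold lower. These comparisons share the treated arrays with those above and the control array with each other.

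**Figure D4:**
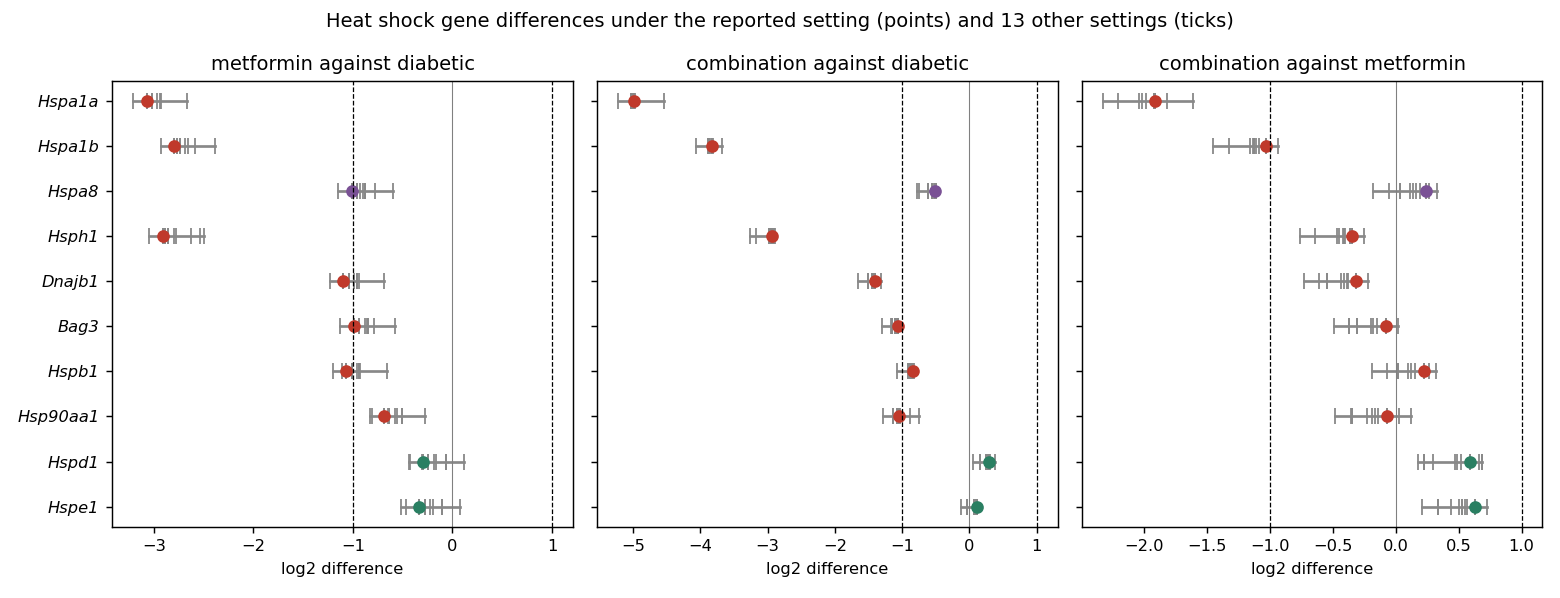
Log2 difference of each heat shock gene (rows) under the reported setting (coloured points: red inducible cytosolic, purple Hspa8, green mitochondrial) and under 13 other settings (grey ticks), in 3 comparisons, with dashed lines at 2-fold. On metformin Hspa1a, Hspa1b and Hsph1 lie at -2.38 or lower in every setting, while Hspa8, Dnajb1, Bag3 and Hspb1 straddle the 2-fold line.

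The wider chaperone network was read from lists of 78 genes outside the 10, of which 64 to 68 were measured in a comparison. On metformin 5 of 66 were at least 2-fold lower (7.58%, beside 3.54% of all genes) and on the combination 6 of 68 (8.82%, beside 5.79%). Their medians were -0.28 and -0.04. These lists leave out that of the endoplasmic reticulum chaperones, described below. Among these lists the medians nearest to those of the 10 were those of the 13 other HSF1 targets, of which 11 were measured. Some of these targets are also in other lists. The endoplasmic reticulum list was nearer on metformin (-0.88) but not on the combination (-0.66), and the HSP90 list was at -0.63 and -0.37. The medians of the HSF1 targets were -0.64 on metformin and -0.78 on the combination, with 3 and 4 genes at least 2-fold lower. Below 0 lay 7 and 8 of the 11, beside 59.1% and 46.0% of all genes. Against the control array their medians were -1.19 and -1.10, with 6 and 7 genes at least 2-fold lower (5.72% and 5.9% of all genes). All 11 lay below 0 in each, beside 61.4% and 56.5% of all genes. The 5 genes of all these lists that were at least 2-fold lower on metformin included Chordc1, an HSP90 co-chaperone (-2.31), and Hspa4l, a second HSP110 (-1.46). The others were the HSP40 genes Dnajb4 (-1.14) and Dnaja1 (-1.01), and Stip1, which hands clients from HSP70 to HSP90 (-1.05). On the combination Chordc1 (-2.13), Hspa4l (-1.66), Dnaja1 (-1.50) and Stip1 (-1.16) were lower again, with the collagen prolyl hydroxylase gene P4ha1 (-2.12) and Hsf2bp (-1.08). Dnajb4, Dnaja1 and Hsf2bp are not in the list of HSF1 targets. Higher by at least 2-fold were Hspb2 (1.34) and the mitochondrial exchange factor gene Grpel2 (1.12) on metformin, and Bag4 (1.69) and Grpel2 (1.42) on the combination. Against the control array 10 of 64 were at least 2-fold lower on metformin and 10 of 67 on the combination (15.6% and 14.9%, beside 5.72% and 5.9%).

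Of the regulators of the response, Hsf1, the main stress-activated factor, was at -0.31 on metformin and -0.07 on the combination against the diabetic array, and Hsf2 was at -0.28 and -0.33. Hsf2bp, whose product binds HSF2, was at 0.81 on metformin and -1.08 on the combination, the 1 of 5 measured regulator genes past 2-fold there. HSF1 is controlled mostly through its protein, which arrays do not measure. Of 13 HSP90 and co-chaperone genes measured, 11 lay below the diabetic array in each treated comparison, beside 59.1% and 46.0% of all genes. Their medians were -0.63 and -0.37, and 2 were at least 2-fold lower in each, beside 3.54% and 5.79% of all genes. The TRiC chaperonin, which folds actin and tubulin, was within 2-fold for all its 7 measured genes, with medians of -0.37 and -0.07. The 9 measured mitochondrial chaperone and protease genes had medians of -0.19 and 0.14, and none was at least 2-fold lower. Hspa9, the mitochondrial HSP70, was at 0.01 on metformin and 0.41 on the combination.

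**Figure D5:**
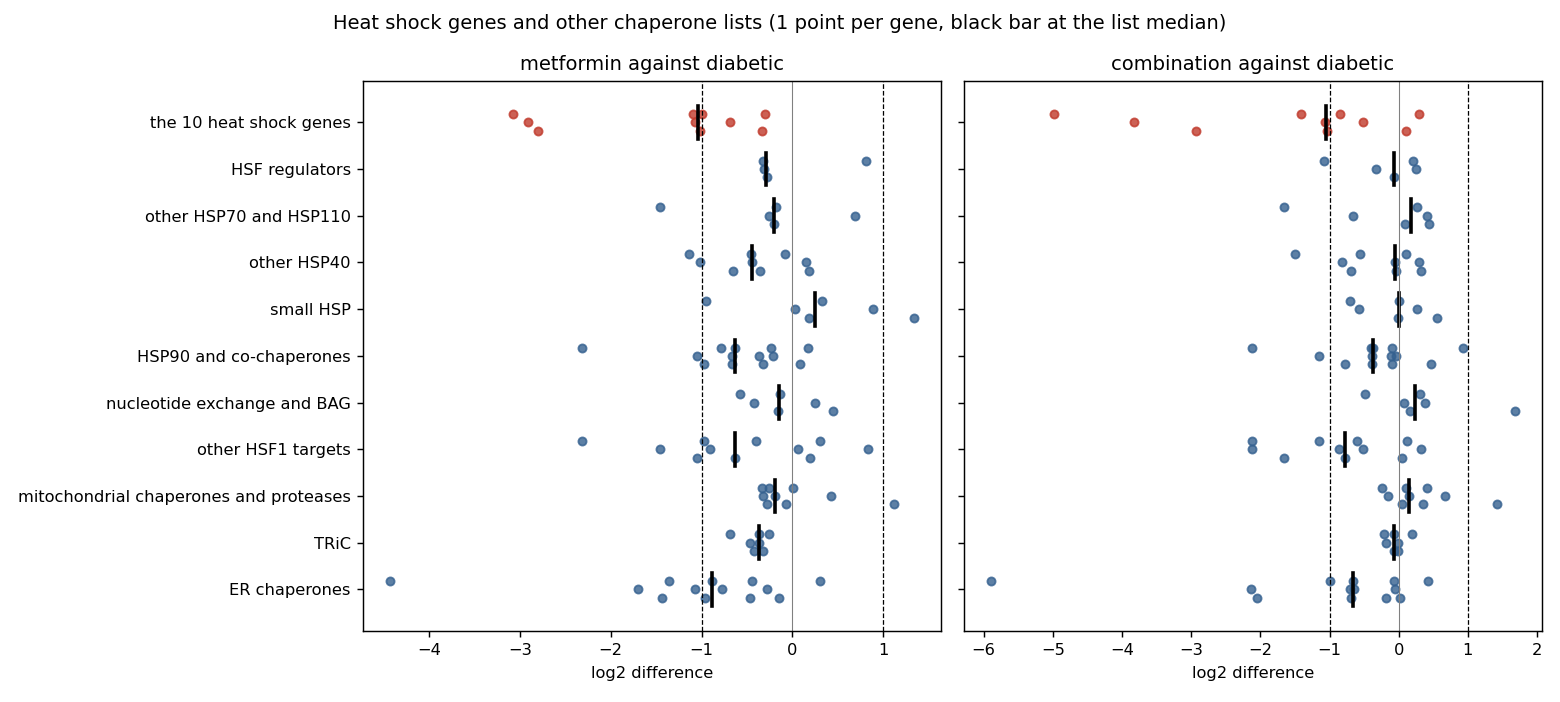
Log2 difference of each gene (points) in the 10 heat shock genes (red) and in other chaperone lists (blue) on the metformin and combination arrays against the diabetic array, with the list median as a black bar and dashed lines at 2-fold. The median of the 10 lies at -1.04 and -1.06, that of the other HSF1 targets at -0.64 and -0.78. That of the endoplasmic reticulum chaperones lies at -0.88 and -0.66. Chordc1 is the lowest of the other HSF1 targets in both panels.

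The chaperones of the endoplasmic reticulum, which answer to a separate stress pathway, were lower on the treated arrays as well. Against the diabetic array 5 of 13 were at least 2-fold lower on metformin and 3 of 13 on the combination, beside 3.54% and 5.79% of all genes. Their medians were -0.88 and -0.66, beside -0.11 and 0.04. Hspa5, the HSP70 of that compartment, was at -0.88 and -0.69. Their summed signal was 254, 245, 144 and 158 times the 75th percentile, from control to combination in the order used above. The 10 heat shock genes ranked the same way (317, 238, 133 and 159). So did the sums of the other HSP40, HSP90, TRiC and other HSF1 target lists, so this ranking is not particular to the endoplasmic reticulum list. The remaining chaperone lists ranked otherwise.

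Immediate early genes, a fast class of transcripts induced by growth signals and by handling of tissue, did not run parallel. Their median against the diabetic array was 1.01 on metformin, with 6 of 12 at least 2-fold higher and 0 lower (8.82% and 3.54% of all genes), and 0.26 on the combination, and it was -0.99 on the diabetic against the control array. The summed signal of exocrine pancreas genes was 163, 19.8, 38.6 and 11.1 in the order control, diabetic, metformin, combination, with 9, 10, 9 and 4 of its 10 genes above background. That of lymphocyte genes was 6.23, 1.92, 10.3 and 3.32, that of Kupffer cell genes 88.6, 52.0, 67.0 and 41.4, and that of matrix genes 38.8, 16.6, 47.4 and 23.4. Cell cycle genes, which mark dividing cells, summed to 22.4, 14.9, 28.9 and 18.7. Their median was 3.05 on metformin against diabetic, with 5 of 6 at least 2-fold higher (8.82% of all genes), and -2.32 on the combination against metformin, with 4 of 5 at least 2-fold lower (8.72%). In the sums of these 5 lists the diabetic array was below the metformin array, the reverse of the heat shock genes. On the combination the pancreas and Kupffer cell sums lay below the diabetic array, and the lymphocyte, matrix and cell cycle sums above it. Of 8 Kupffer cell genes 5 lay above the diabetic array on metformin and 3 below it (59.1% of all genes below), down to -1.90 for Cd163. The part of these lists in the heat shock values was not tested.

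Genes with a profile over the 4 arrays most like the median of the 10 were found by the Euclidean distance between log2 values centred on each gene's mean. Among 12702 genes measured on all arrays, and leaving out the 10, the nearest were Ttc37 (distance 0.07), Ipo8 (0.13), Fkbp4 (0.16), Gm19510 (0.17), Atp8b1 (0.19) and Hemk1 (0.19). Fkbp4 encodes an HSP90-binding immunophilin. Outside the 10, no gene came close to the steep profile of Hspa1a, with Dmbt1 nearest at 1.37 and Spsb4 next at 1.59. Distances from Hspa1a to the other members were not computed. With 4 single arrays many genes can share a profile, and these are descriptions only.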

How the data were processed

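Liver RNA of 4 groups was measured on 1 Agilent array each. Per the file headers, the deposited spot intensity was extracted with Feature Extraction 11.5.1.1 on a grid built for mm9. The submitters' processing notes name version 10.7. The deposited processed signal is background-corrected by that software. The authors' table was deposited as log2 values, with column medians of 7.85 and a slope of 0.986 to 1.01 against the same array's log2 signal. Its normalization between arrays is not stated, and it served as an alternative.

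Non-uniform and population outlier spots were left out (2.18% to 5.35% of spots), which removed 10 of the 76 heat shock probe values, 5 of them on the metformin array. The 75th percentile was taken over the 51780 probes with a value on every array. A probe needed 50% or more of its spots well above background. Probes passing on both arrays were averaged per gene, and 2-fold is the mark. Accessions were matched to RefSeq symbols of GRCm38.p6, which named 33767 of 56605 probes. The 10 genes and the chaperone and marker lists were chosen with earlier results on these arrays known. Genes named are all 10, list genes past 2-fold and their partners, and the 6 nearest profiles to each target. Python 3.11.15, pandas 2.3.3 and, for normexp, limma 3.58.1 in R 4.3.3 were used, and the summary was tested on simulated data. The number of arrays limits the precision.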

Additional observations from a re-analysis of the deposited data

How the results depend on the processing

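Each of the 12 counts of genes past 2-fold was recomputed under 13 other settings, 1 of which (the all-gene median taken off) was chosen after seeing the data, and 149 of 156 values stayed within 1.5 times. The counts of higher genes, and of lower genes for diabetic against control, were 0 and stayed 0 in every setting. The 7 values that moved further were all among the remaining counts. On metformin against the diabetic array 6 lower genes became 3 when the 75th percentile came from probes everywhere above background, and with quantile normalization, spike-in probes, the authors' values or the all-gene median taken off. Spike-in probes took the 7 lower genes of metformin against control to 4, and median centring the 2 of combination against metformin to 1. Of 351 recomputed differences that were past 2-fold, 351 kept their sign and 311 stayed past it. Over all genes, the scalings moved the median by -0.14 to 0.41 for metformin against diabetic and by -0.24 to 0.01 for combination against diabetic. The share of lower genes among those past 2-fold was 28.6% (7.75% to 42.2%) and 59.2% (58.0% to 80.7%) there, with 188 to 721 and 800 to 1327 lower genes in place of 492 and 817. In the other comparisons it was 48.8% (27.4% to 50.5%) for diabetic against control, 76.9% (67.7% to 95.3%) for combination against metformin, 41.4% (6.12% to 58.0%) for metformin against control and 56.2% (33.3% to 67.9%) for combination against control. Normexp used the median spot signal. No paired analysis was possible because each group has 1 array.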

Other observations

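The letters of the heat shock element were also set against expression across all genes with a promoter window, as a description. Of 68 measured genes with 3 alternating units, 6 were at least 2-fold lower on the metformin than on the diabetic array (8.82%), beside 385 of 10968 genes without them (3.51%). Without the heat shock genes themselves this was 5 of 65 (7.69%). The 6 were Hsph1, the HSP90 co-chaperone gene Chordc1, Ahcy, Tex12, Gm31365 and Gm6297, named here after their values were seen. On the combination array it was 6 of 67 (8.96%) beside 642 of 11137 (5.76%), and 5 of 64 (7.81%) without the heat shock genes. Against the control array the share was 12.9% beside 5.83% on metformin and 8.06% beside 5.91% on the combination. Without the heat shock genes these 2 shares were 11.9% and 6.78%. The share with them ran the other way, at 5.88% beside 8.56%, for the combination against metformin and, at 1.64% beside 5.69%, for diabetic against control. Genes with the shorter inverted pair were lower in 3.08% of 1593 on metformin beside 3.62% of 9443 without it, and in 6.17% of 1622 on the combination beside 5.72% of 9582.

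The outlier spots left out of the heat shock genes gave the following values where they were kept. The Hsph1 probe left out on 2 arrays stood at 4.66 on the control and 1.91 on the metformin array, beside 4.07 on the diabetic and 1.46 on the combination array. The second Hspd1 probe, an outlier on 3 arrays, stood at 4.95, 4.42, 3.87 and 4.61, and the third Hspe1 probe at 3.28, 2.91, 2.03 and 3.03. Both were lowest on metformin, as on the probes used, but fell further there. With outlier spots kept, Hspe1 on metformin was at -0.52 against the diabetic array in place of -0.33. Hspd1 on metformin was then at -0.91 against the control array in place of -0.75. The outlier Hsp90aa1 probe stood at 3.57 on the metformin array, beside 4.51 on the diabetic and 3.18 on the combination array. The 2 outlier Hspa8 probes stood at 4.55 and 4.29 on the metformin array. They stood at 4.96 and 4.97 on the diabetic and at 4.87 and 4.55 on the combination array.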
